A study of Mus musculus with 6 samples.

Results

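The GATA switch regulators described here are Gata1, Gata2, Zfpm1 and Gfi1b. They were taken from a PRO-seq table by gene name, with every transcript row of each gene kept, which gave 4 of the 2744 genes and 5 of the 3022 transcript rows held. PRO-seq maps RNA polymerases engaged in transcription, by having them add biotin-labelled nucleotides to the RNA they are making, here for 3 min. The cells were cKIT+ bone marrow progenitors of female mice on the C57/BL6 background that were Mllt3 flox/flox and Rosa26Cre+ and whose age was not given. Cells transduced with wild-type MLLT3 (WT, 3 libraries) were compared with cells transduced with MLLT3 K63E K67E (DM, 3 libraries). MLLT3 (AF9) belongs to the super elongation complex and carries a YEATS domain. The series asks how that domain's binding to modified histones and to 7SK RNA relates to blood formation. Both groups were sorted and grown for 8 days in methylcellulose with mFlt3L at 10 ng/mL, with mSCF, mIL-3, mIL-6, mIL-11, mGMCSF, hEPO and hTPO at 20 ng/mL each, with gentamycin, and 200 nM 4-hydroxytamoxifen, added so that the endogenous Mllt3 gene would be deleted. Neither group therefore was meant to keep its own Mllt3, how complete the deletion was is not given, and the groups compared include no untransduced control. The labels do not say whether replicates came from separate animals or cultures, so every p-value measures only the spread between these libraries.

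GATA1 and GATA2 are zinc finger factors that bind the same short DNA element. GATA2 maintains stem and progenitor cells and mast cells, and GATA1 drives erythroid, megakaryocyte, mast cell and eosinophil differentiation. In the GATA switch, GATA1 displaces GATA2 from shared sites, among them sites in Gata2 itself, as erythroid cells mature. Zfpm1 encodes FOG1, a cofactor that binds GATA1 and is needed for much of its function. Gfi1b encodes a zinc finger repressor that acts with the demethylase LSD1 and is needed for erythroid and megakaryocyte development.

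All 4 genes had a lower mean density of engaged polymerase in DM than in WT. The rows held are ones that the authors' body test had called, and 42.1% of all genes tested here passed lower in bodies. Mean body density in DM was 52.3% of the WT mean for Gata1, 55.3% for the long Gata2 transcript, and 60.6% for Zfpm1 and for Gfi1b. In the windows at the rows' start sites, Gata1 and both Gata2 transcripts fell to between 43.9% and 46.9% of WT. The Gata1 window lies inside the gene and not at its promoter. The Gfi1b start held 57.0% and the Zfpm1 start 73.4% of the WT mean, and neither passed the test, which 20.3% of all genes passed and 10.7% passed with a lower level. In these bulk libraries, fewer cells of a type and less transcription per cell cannot be told apart.

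Library totals ran from 15112853 to 22981603 reads. The head window of each row is 330 bp long and opens 30 bp before the row's start site, and the body runs from there to the row's end, introns included. Levels are given as reads per 1000000 library reads (RPM) and, where genes or windows are compared with each other, as RPM per kb (RPKM). WT replicate 2, the library with the fewest reads, stood apart with 23.7 head reads per 100 body reads over all genes, against 12.7 to 14.9 in the other 5 libraries. The table holds only rows with an adjusted p under 0.05 in the authors' own body comparison. The body changes above and below therefore describe chosen rows and test nothing. Kit, the gene of the sorted marker, was the gene with rank 66 of 2744 in WT body density and rank 183 in DM, and its body level was 1266 ± 259 RPM in WT and 657 ± 8.53 in DM (mean ± SD, n = 3). Mllt3 bodies held 84.4 ± 9.62 RPM in WT and 60.1 ± 2.50 in DM (mean ± SD, n = 3), and the added cDNA cannot be told apart from the endogenous gene in these counts.

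Body calls cover nearly the whole table, whose rows the authors' body test chose. All 4 genes passed the body test with a lower level, where 99.5% of the genes held passed in either direction, 42.1% lower in DM and 57.4% higher. The groups' bodies did not overlap in 3 of the 4 genes (38.3% of all genes had every DM library below every WT library). The head test used head counts, but only of genes that the authors' body test had chosen, so it is not free of that choice. It called 2 of the 4 genes, Gata2 and Gata1, both lower, and the Gata1 head window lies inside the gene. Heads did not overlap in 3 of the 4 genes, Gata1, Gata2 and Gfi1b, against 23.4% of all genes with every DM library below every WT library. Over all genes tested, 20.3% passed the head test and 10.7% passed it lower in DM. The median log2 change over all genes was 0.40 in bodies and -0.11 in heads, so the 4 genes lay below the middle of the table in both windows.

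The rows differ in where their head windows lie, so their promoters are shown first. Coordinates are those of the files. The submitters' processing notes name the build mm10, of which GRCm38.p6 is the patched assembly, and the start sites of 3 rows equal RefSeq starts on GRCm38.p6. The distal Gata2 row (ENSMUSG00000015053.14, transcript ENSMUST00000170089.7) starts at the distal first exon of Gata2 and spans chr6:88193891-88207032 on the plus strand. The proximal Gata2 row (ENSMUST00000015197.8) of the same gene spans chr6:88198334-88207032, and its start lies 330 bp upstream of the proximal RefSeq start. Its head window, chr6:88198304-88198634, therefore ends before that RefSeq start and covers the proximal promoter region. Zfpm1 (ENSMUSG00000049577.15) spans chr8:122282141-122337251 on the plus strand and Gfi1b (ENSMUSG00000026815.14) chr2:28609450-28621982 on the minus strand, both from the RefSeq start. The Gata1 row (ENSMUSG00000031162.14, transcript ENSMUST00000128449.1) spans chrX:7959260-7964166 on the minus strand, and its start lies 3744 bp downstream of the RefSeq start. The Gata1 head window is thus a stretch inside the gene and says nothing about the Gata1 promoter, whose sequence is not printed for that reason. Each gene overlaps an lncRNA gene in RefSeq, Gm39488 for Gata1, Gm38708 for Gata2, Gm39269 for Zfpm1 and Gm52548 for Gfi1b, and with the use of strand not given their reads cannot be told apart. They cover the whole Gata1 row and the head windows of the distal Gata2 row, Zfpm1 and Gfi1b, but not the proximal Gata2 row.

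The 250 bases upstream of the RefSeq start are given 5′ to 3′ on the strand of the gene for the starts at which head reads were counted (RefSeq, GRCm38.p6). They are chr6:88193641-88193890 and chr6:88198414-88198663, both plus strand, for Gata2, chr8:122281891-122282140, plus strand, for Zfpm1, and chr2:28621983-28622232, minus strand, for Gfi1b. The proximal Gata2 head window covers most of the bases printed for that start. Capitals mark matches, on either strand, to GATA with A or T before it and A or G after it, to CCAAT, or to AAATCA, letters within the known GFI1 site.
Gata2 distal: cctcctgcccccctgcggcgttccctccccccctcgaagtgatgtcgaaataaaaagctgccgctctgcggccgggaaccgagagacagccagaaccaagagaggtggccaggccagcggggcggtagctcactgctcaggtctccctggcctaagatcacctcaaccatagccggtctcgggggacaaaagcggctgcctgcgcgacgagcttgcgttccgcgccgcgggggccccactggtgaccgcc
Gata2 proximal: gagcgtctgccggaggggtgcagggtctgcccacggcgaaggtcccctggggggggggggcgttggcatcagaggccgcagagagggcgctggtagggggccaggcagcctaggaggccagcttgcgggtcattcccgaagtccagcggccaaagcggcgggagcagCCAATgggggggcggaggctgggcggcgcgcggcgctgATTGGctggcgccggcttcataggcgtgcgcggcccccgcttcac
Zfpm1: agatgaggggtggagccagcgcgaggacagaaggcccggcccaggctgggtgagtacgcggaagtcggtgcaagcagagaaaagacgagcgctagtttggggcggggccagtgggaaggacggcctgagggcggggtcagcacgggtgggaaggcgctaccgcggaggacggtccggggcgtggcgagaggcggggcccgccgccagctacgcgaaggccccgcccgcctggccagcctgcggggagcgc
Gfi1b: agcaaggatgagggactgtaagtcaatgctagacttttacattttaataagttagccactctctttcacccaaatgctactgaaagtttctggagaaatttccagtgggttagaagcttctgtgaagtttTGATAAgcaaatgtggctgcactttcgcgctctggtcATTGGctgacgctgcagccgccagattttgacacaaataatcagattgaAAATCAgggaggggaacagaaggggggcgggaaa

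The Gfi1b window holds all 3 kinds of letters, TGATAA beginning 120 bases upstream of the start, ATTGG, which reads CCAAT on the other strand, 83 bases upstream and AAATCA 34 bases upstream. The proximal Gata2 window holds CCAAT at 83 bases and ATTGG at 45 bases upstream. The distal Gata2 window and the Zfpm1 window hold none of them, and no match overlaps another. Of 32851 RefSeq promoter windows of the same length, 26.5% hold the GATA letters, 33.8% CCAAT and 12.4% AAATCA, so each match is common by its letters alone. Gfi1b also differs from the others in base composition, with 44.4% G and C against 67.2% in the distal Gata2 window, 74.0% in the proximal one and 73.2% in Zfpm1; the median of all windows was 52.4%. These matches are descriptions of sequence, and no binding was measured here.

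Gata2 was the most heavily transcribed of the 4 genes. The distal row's body held 34526, 17842 and 28698 reads in the WT libraries, against 17398, 14525 and 13958 in the DM libraries (replicates 1, 2 and 3 in this order, here and below). The WT libraries held 1502, 1181 and 1254 RPM and the DM libraries 762, 718 and 699 RPM, so the groups lay far apart, with little spread in DM. The body log2 change was -0.85 (SE 0.115, edgeR adjusted p 3.46e-04). In density, Gata2 had rank 4 of 2744 genes in WT and rank 16 in DM.

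At the distal Gata2 start, the head window held 825, 1009 and 1374 reads in the WT libraries, against 445, 571 and 484 in the DM libraries. On the RPM scale WT stood at 35.9, 66.8 and 60.1 and DM at 19.5, 28.2 and 24.2, so the lowest WT library, replicate 1, stood above the highest DM library. The distal head fell by 1.18 on the log2 scale (SE 0.274, edgeR adjusted p 0.0123). The adjusted p was 0.0508 without WT replicate 3, 0.0936 without DM replicate 1 and 0.0603 without DM replicate 3.

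The proximal Gata2 head held 2259, 1814 and 1779 reads in the WT libraries, against 1160, 927 and 845 in the DM libraries. On the RPM scale WT stood at 98.3, 120 and 77.8 and DM at 50.8, 45.9 and 42.3, and again the groups did not overlap. The proximal head fell by 1.09 on the log2 scale (SE 0.232, edgeR adjusted p 0.00837), with an adjusted p of 0.0590 without DM replicate 1 and 0.0644 without DM replicate 3. Its body, which is contained in that of the distal row, held 23290, 10581 and 17560 reads in the WT libraries, against 10567, 8670 and 8133 in the DM libraries (log2 change -0.93, SE 0.145). Reads of the proximal head are likewise counted in the body of the distal row, since the shorter transcript lies within the longer one.

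Subtraction of the shorter row from the longer leaves the stretch between the heads, chr6:88194192-88198303, 4112 bp that the distal row covers and the proximal row does not. The lncRNA gene Gm38708, chr6:88141848-88198284 in RefSeq, covers nearly all of this stretch and the whole distal head window. The stretch was defined after the data had been seen. It held 8977, 5447 and 9359 reads in the WT libraries, against 5671, 4928 and 4980 in the DM libraries. This came to 387 ± 24.6 RPM in WT and 247 ± 2.92 in DM (mean ± SD, n = 3), so DM kept 63.9% of the WT level. The log2 change was -0.65 (SE 0.093, edgeR adjusted p 4.81e-04).

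**Figure D1:**
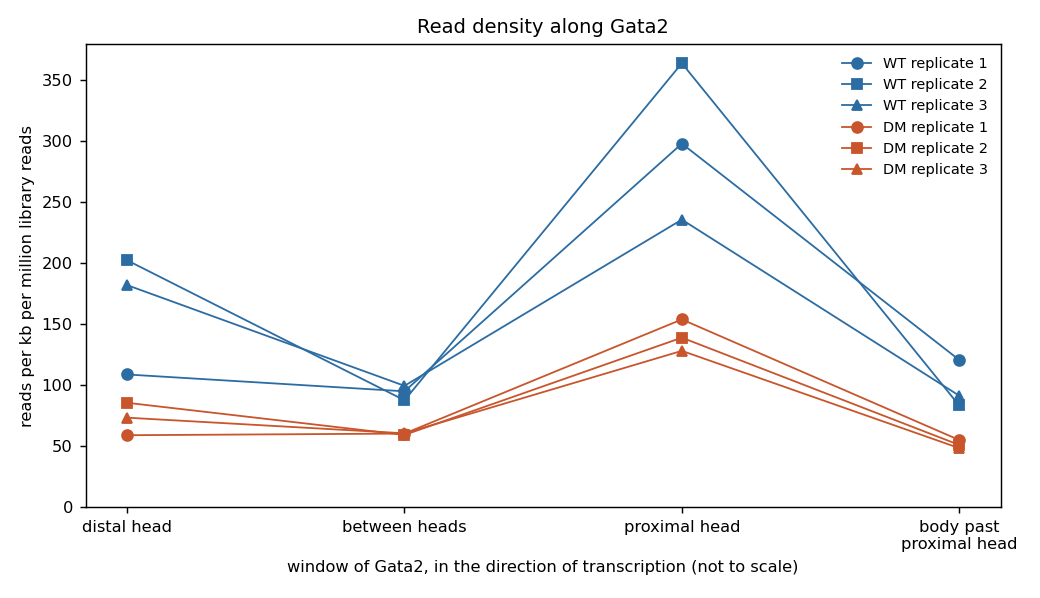
Read density along Gata2 in each of the 6 libraries, in reads per kb per 1000000 library reads (vertical axis) for 4 consecutive windows in the direction of transcription (horizontal axis, not to scale). Each line is 1 library, blue for WT and red for DM; the DM lines lie below the WT lines in every window, and both groups peak at the proximal head, at 299 ± 64.1 in WT and 140 ± 12.9 in DM (SD).

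The Gata2 starts were compared with each other within each library. The proximal head held 1.94 ± 0.733 times the reads of the distal head in WT and 1.99 ± 0.536 times in DM (mean ± SD, n = 3; two-sided exact permutation p 1, 3 ratios tested). Without WT replicate 1 the WT mean was 1.55. The permutation tests of the 3 ratios compared means of log2 ratios, not the means printed. The stretch between the heads had 0.976 ± 0.164 times the density of the body past the proximal head in WT and 1.17 ± 0.0776 times in DM. All 3 DM values, from 1.096 to 1.25, lay above all 3 WT values, from 0.787 to 1.09, and the exact permutation p of 0.1 is the smallest that 3 against 3 can give (0.3 after Benjamini-Hochberg adjustment over the 3 ratios).

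Gata1 was transcribed at a much lower level. Its body held 327, 363 and 598 reads in the WT libraries, against 247, 261 and 199 in the DM libraries. In RPM the WT libraries held 14.2, 24.0 and 26.1 and the DM libraries 10.8, 12.9 and 9.96, so that WT replicate 1 was closer to DM than to the other WT libraries, without overlap. The body log2 change was -0.93 (SE 0.227, edgeR adjusted p 0.00550). Gata1 moved from rank 296 of 2744 in WT body density to rank 700 in DM.

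The head window of Gata1, inside the gene, held 79, 108 and 190 reads in the WT libraries, against 52, 56 and 65 in the DM libraries. Scaled to RPM, WT stood at 3.44, 7.15 and 8.30 and DM at 2.276, 2.77 and 3.25, and the groups were apart by a narrow margin. This window fell by 1.18 on the log2 scale (SE 0.330, edgeR adjusted p 0.0220). The call was lost without WT replicate 3 (adjusted p 0.106) or without DM replicate 1, 2 or 3 (0.123, 0.0739 and 0.0603). The ratio of Gata2 to Gata1 body density was 24.2 ± 11.8 in WT and 23.5 ± 3.03 in DM (mean ± SD, n = 3; exact permutation p 1). The test used log2 ratios, whose mean was higher in DM by 0.048. The Gata2 to Gata1 ratio compares transcription of the rows, not the amounts of the factors, which were not measured. It was 37.9, 17.6 and 17.2 in WT and ran from 20.0 to 25.3 in DM, so WT replicate 1 lay above and both other WT libraries below every DM library. Without WT replicate 1, the WT mean was 17.4 and every DM library was higher than both; ratios without single libraries were added after the data had been seen.

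Zfpm1 is the longest of the genes, and its reads were spread thinly over 54809 bp of body. The body held 1000, 1245 and 983 reads in the WT libraries, against 704, 795 and 642 in the DM libraries. WT libraries held 43.5, 82.4 and 43.0 RPM and DM libraries 30.8, 39.3 and 32.1 RPM; WT replicate 2 was nearly alone in its height, and the other WT libraries lay just above DM replicate 2. The log2 change was -0.72 (SE 0.246, edgeR adjusted p 0.0197). Without WT replicate 2 it was -0.34, and the adjusted p rose to 0.0628 without DM replicate 1 and 0.0574 without DM replicate 3.

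The Zfpm1 promoter was the start at which the groups overlapped. Its head held 91, 159 and 155 reads in the WT libraries, against 112, 112 and 103 in the DM libraries. On the RPM scale WT stood at 3.96, 10.5 and 6.77 and DM at 4.90, 5.54 and 5.15, so WT replicate 1 lay below every DM library. The log2 change of -0.44 (SE 0.319) did not pass the test (edgeR adjusted p 0.349). Its size rested on single WT libraries: -0.72 without replicate 1, where it passed (adjusted p 0.0311), and -0.046 without replicate 2.

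Gfi1b had few reads in both windows. Its body held 306, 378 and 537 reads in the WT libraries, against 268, 312 and 205 in the DM libraries, or 13.3, 25.0 and 23.5 RPM against 11.7, 15.4 and 10.3 RPM. WT replicate 1 lay below DM replicate 2, so the groups overlapped. The log2 change was -0.72 (SE 0.250, edgeR adjusted p 0.0208), and the adjusted p lay between 0.0622 and 0.0803 when WT replicate 2, WT replicate 3, DM replicate 1 or DM replicate 3 was left out.

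The Gfi1b head held 133, 152 and 181 reads in the WT libraries, against 96, 106 and 82 in the DM libraries. Scaled to library totals, WT held 5.79, 10.1 and 7.91 RPM and DM 4.203, 5.24 and 4.10 RPM, with all DM libraries below all WT libraries. The log2 change of -0.80 (SE 0.276) missed the threshold (edgeR adjusted p 0.0516). It was past the threshold with TMM scaling (adjusted p 0.00831), with DESeq2 (0.0102) and without WT replicate 1 (0.00562).

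**Figure D2:**
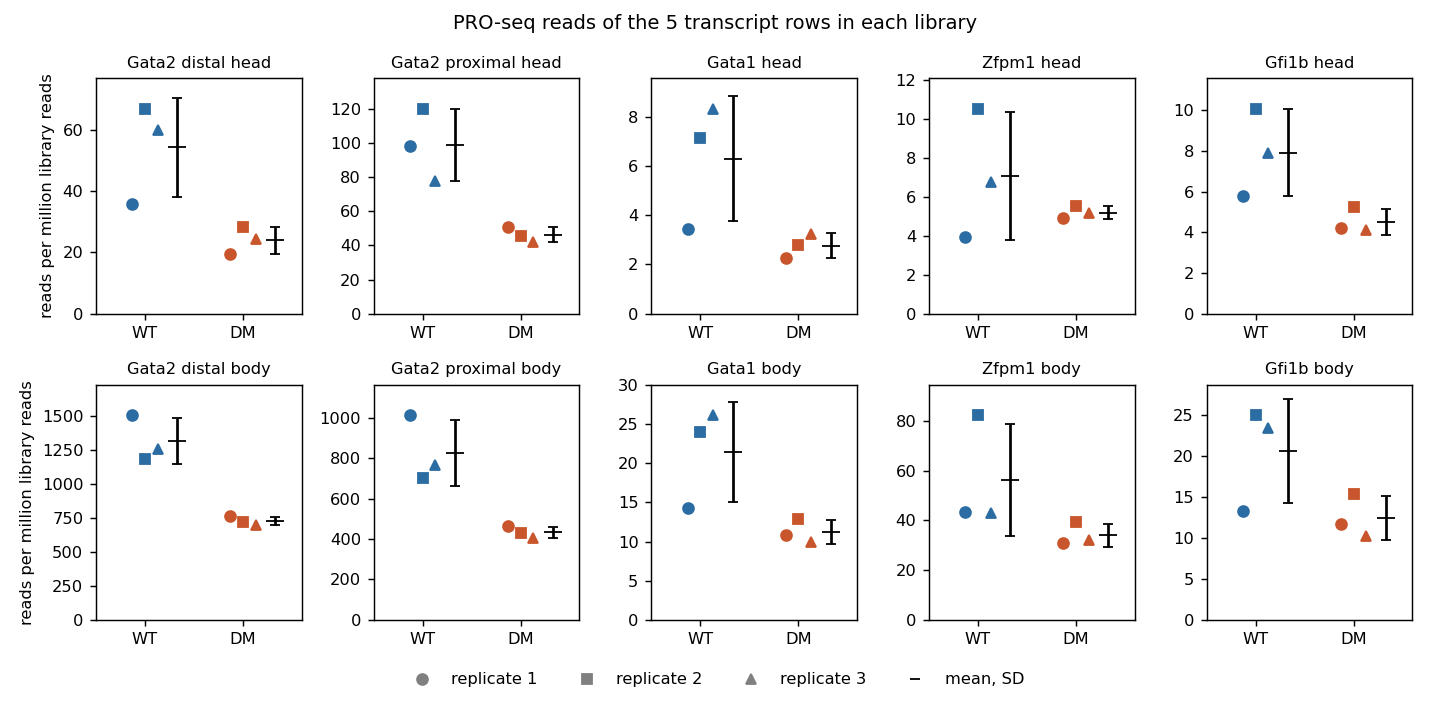
Reads per 1000000 library reads (vertical axes, each from 0) in the head (top) and body (bottom) of the 5 transcript rows, for WT in blue and DM in red. Symbols mark replicates 1 to 3 and black bars the mean and SD; the groups overlap in the Zfpm1 head and the Gfi1b body, and in the other panels every DM library lies below every WT library.

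Ranks in the authors' deposited table cover more rows than are held here, an estimated 13408. There, the head change placed Gata1 at percentile 3.81, the distal Gata2 row at 3.95, the proximal row at 4.61, Gfi1b at 8.08 and Zfpm1 at 25.3, counted from the most lowered row. The body change placed the same 5 rows, in the authors' deposited table, at percentiles 1.93, 2.07, 1.57, 4.76 and 5.996. Zfpm1 was thus the row whose head and body ranks lay farthest apart. Judged by the rank of the largest p held in the authors' deposited table, 22.7% of 13629 rows tested had an adjusted p under 0.05 in that body comparison.

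**Figure D3:**
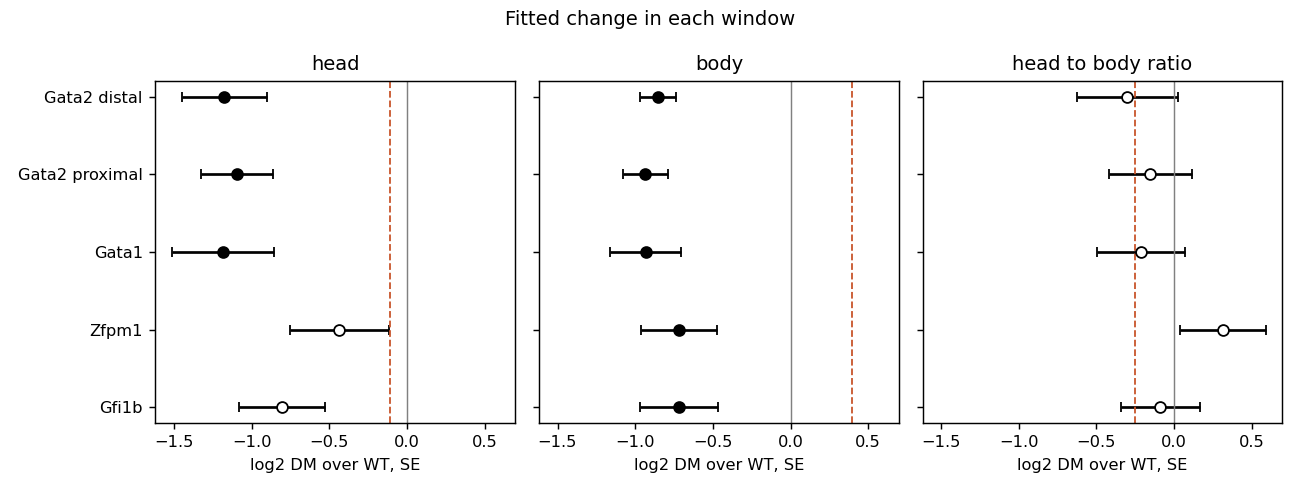
Fitted log2 change, DM over WT (horizontal axes), with its standard error, for the head, the body and the head to body ratio of each transcript row. Filled points are past an adjusted p of 0.05, open points are not, and the dashed red line is the median of all genes tested; head and body points lie left of that median for every row, and no ratio is past the threshold.

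The head to body ratio asks whether polymerase near the start and polymerase in the gene changed by different amounts. For Gata1, whose head window lies inside the gene, the ratio compares stretches within the gene and cannot answer this. Head density was 20.8 ± 5.55 times body density in WT and 25.5 ± 1.81 times in DM for Zfpm1, and 14.5 ± 1.84 and 13.6 ± 1.14 times for Gfi1b (mean ± SD, n = 3). The distal Gata2 head was 1.66 ± 0.658 times as dense as its body in WT and 1.29 ± 0.272 times in DM, and the proximal head 3.14 ± 1.06 and 2.72 ± 0.0748 times. These genes thus ranged from strongly promoter-weighted Zfpm1 to Gata2, whose distal start and body were closest in density. The fitted change of the ratio was 0.32 for Zfpm1 (SE 0.276), -0.30 for the distal Gata2 row (SE 0.323), -0.15 for the proximal row (SE 0.266), -0.21 for Gata1 (SE 0.283) and -0.09 for Gfi1b (SE 0.255). In edgeR, 0 of the 4 genes passed, with adjusted p from 0.576 to 0.884, against 0.073% of all genes tested. At an unadjusted edgeR p under 0.05, 0 of the 4 genes passed, against 408 of 2739 genes. With DESeq2, 0 passed, against 122 of 2744 genes. A ratio change that misses the threshold at standard errors of this size does not show that the ratio was the same.

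Ordered by WT body density, Gata2 (102 ± 13.1 RPKM) stood above Gata1 (4.66 ± 1.38), Gfi1b (1.68 ± 0.520) and Zfpm1 (1.03 ± 0.412; mean ± SD, n = 3). In DM the order was the same, at 56.6 ± 2.51, 2.44 ± 0.330, 1.02 ± 0.218 and 0.622 ± 0.0835 RPKM. Gfi1b and Zfpm1 overlapped in WT, from 1.09 to 2.04 against 0.784 to 1.503 RPKM, and not in DM, while the other neighbours in the order did not overlap in either group. The median gene of the table stood at 0.931 RPKM in WT and 1.06 in DM, so in WT Zfpm1 was near the middle, while in DM Gfi1b was (rank 1394 of 2744) and Zfpm1 lay below it (rank 1796).

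The genes whose body pattern over the 6 libraries was most like each member were found by the root mean square difference of centred log2(RPM + 0.1) values, among 2637 genes with a mean of at least 50 body reads. Gata2 was closest to Rad51b (0.060), a recombination repair gene, Foxp3 (0.065), known as the factor of regulatory T cells, and F2r (0.073), which encodes a thrombin receptor. Gata1 was closest to Acss1 (0.084), Six5 (0.11) and Tesc (0.12). Zfpm1 was closest to Stmn1 (0.12), Hmgb3 (0.14) and H2az1 (0.16), and Gfi1b to Six5 (0.13), its own paralog Gfi1 (0.13) and Nkpd1 (0.17). Within the group, Gata1 and Gfi1b were the most alike pair (0.13), and Gata2 lay 0.39 or more from each of the others. The median difference of all genes from a member was between 0.66 and 0.73. All of these values share the same 6 libraries and describe likeness only.

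Among partners that assemble with GATA factors on DNA, such as TAL1, LMO2, LDB1 and their cofactors, 9 of 16 listed genes were held; 8 passed the body test lower in DM and 1 higher, with a median log2 change of -0.42. Since 99.5% of all genes passed this test, 42.1% lower and 57.4% higher, a body call of a listed gene says little beyond its direction. The higher gene, Tcf4 (0.52), picked out with its value in view, did not pass with TMM scaling or DESeq2. Cbfa2t3, which encodes the corepressor ETO2, fell from 621 ± 75.0 to 367 ± 21.1 body RPM (log2 change -0.76), and Tal1 from 317 ± 61.2 to 196 ± 6.31 RPM (log2 change -0.70; mean ± SD, n = 3). Runx1 changed less, by -0.28 on the log2 scale. In heads, 1 of these 9 genes passed, Cbfa2t3 with -1.17, a share close to the 10.7% of all genes that passed lower in heads. Of 21 corepressor genes of the FOG1 and GFI1B complexes, 4 were held and all 4 passed lower in bodies, against 42.1% of all genes: Rcor2, a CoREST subunit, by -1.38, Chd3 by -0.53, Tacc3 by -0.41 and Mta1 by -0.27. In heads 1 of these 4 corepressor genes passed lower, Chd3 with -1.07, against 10.7% of all genes. The Rcor2 head log2 change was 0.02. Of 7 family relatives, Gata3 (-0.78) and Gfi1 (-0.75) were held, both lower in bodies. The Gfi1 head (-0.69) did not pass, and the Gata3 head had too few reads to be tested.

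Listed targets of the GATA factors were lower in the stem and mast cell list and mixed in the other lists. Of 24 genes listed as GATA2 targets in stem and mast cells, 14 were held and 13 tested; all 13 passed the body test lower (median log2 change -0.88), against 42.1% of all genes. In heads all 13 had a negative log2 change (median -1.11) and 9 passed the test lower, against 10.7% of all genes. This list and the others were chosen with earlier results of these data known, so their counts are descriptions and test nothing. Tph1, which makes serotonin in mast cells, fell from 1119 ± 267 to 556 ± 7.83 body RPM, and Il1rl1, the receptor for IL-33, from 801 ± 215 to 433 ± 18.2 (mean ± SD, n = 3). Cpa3, a mast cell protease, fell by 0.66 on the log2 scale in the body. The 14th gene, Hoxa9, had too few reads to be tested.

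Of 34 listed erythroid targets of GATA1, 6 were held, and 5 passed lower and 1 higher in bodies (median log2 change -0.98), against 42.1% and 57.4% of all genes. Car2, a carbonic anhydrase, fell from 29.1 ± 8.74 to 13.3 ± 1.69 RPM, and Sptb, erythroid spectrin, from 17.7 ± 5.90 to 9.09 ± 1.96. Dmtn had 17.4 ± 18.8 RPM in WT, a spread larger than its mean, against 3.12 ± 0.570 in DM. Bcl2l1, a survival gene, rose from 129 ± 11.2 to 213 ± 6.60 body RPM (mean ± SD, n = 3). Its head went the other way, with a log2 change of -0.59 that did not pass the test. Heads of 4 erythroid targets were tested, and 1 passed lower (median log2 change -0.70), against 10.7% of all genes. Of 21 megakaryocyte targets, 4 were held and divided evenly: Itga2b (-0.83), the integrin CD41, and F2r (-0.81) were lower, and Cd9 (1.07) and Thbs1 (1.35) higher. Their body median of 0.13 was -0.08 with TMM scaling and -0.20 with DESeq2. Among their heads 2 passed lower and 1 higher, against 10.7% and 9.62% of all genes. The higher head calls numbered 2 with TMM scaling and 0 with the authors' size factors.

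Regulators of granulocytes and monocytes went the other way. Of 22 listed genes, 11 were held, and 10 passed higher and 1 lower in bodies (median log2 change 1.03), the lower one being Gfi1. Over all genes 57.4% passed higher, with a median of 0.40, and with DESeq2 7 of the 11 listed genes passed higher. Cebpb, a myeloid differentiation factor, rose from 63.1 ± 20.6 to 129 ± 11.8 RPM, Cebpd from 31.3 ± 13.5 to 70.0 ± 5.75, and Zeb2 from 647 ± 116 to 928 ± 58.7 (mean ± SD, n = 3). In heads, 3 of the 11 passed, all higher (median 0.74), against 9.62% of all genes. That count depended on the scaling: 1 passed higher with the authors' size factors, 8 with DESeq2, and 9 with TMM scaling, which also called 1 lower. Over all 7 lists, the head calls ran from 0 without DM replicate 1, where edgeR called 14 genes of the whole table and 661 had an unadjusted p under 0.05, to 30 without WT replicate 2. Genes of these lists were held because the authors' body test called them, so the absence of a listed gene says nothing about its level.

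**Figure D4:**
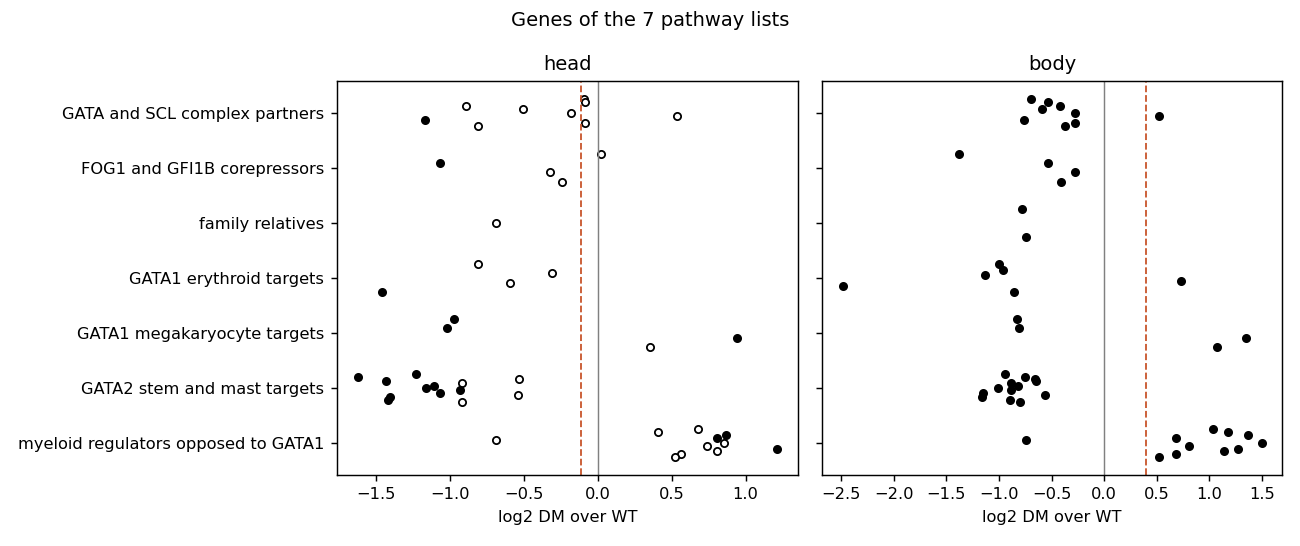
Log2 change, DM over WT (horizontal axes), of every tested gene of the 7 lists in heads (left) and bodies (right). Each point is a gene, filled where past an adjusted p of 0.05, and the dashed red line is the median of all genes tested; genes of the stem and mast cell list lie left of 0 in both panels, and 10 of 11 myeloid regulators lie right of it.

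Markers of other cell types also differed between WT and DM, but many of them are genes of the lists above. All mast and basophil markers held are in the stem and mast cell list, as are Kit, Cd34, Meis1 and Hoxa9. Csf1r, Slc4a1 and Itga2b are in the myeloid, erythroid and megakaryocyte lists. For these genes the marker levels are the same rows seen again and add no separate result. The summed body level of the 7 neutrophil and monocyte markers held, of 18 listed, was 252 to 315 RPM in WT and 622 to 705 in DM. Of these 7, 6 passed the body test higher, and Ctsg, a granule protease of early granulocytes, passed lower, from 47.0 ± 2.72 to 26.2 ± 4.94 RPM (mean ± SD, n = 3). Over all genes, 57.4% passed the body test higher and 42.1% lower, so a body call of any marker here says little beyond its direction. Ctsg and Procr were picked out with their values in view. The 4 mast and basophil markers held, of 11, came to 1447 to 2592 RPM in WT and 1108 to 1184 in DM. The 5 stem and progenitor markers held, of 11, came to 1334 to 1987 RPM in WT and 825 to 849 in DM. Most of this sum was Kit; Kit, Cd34 and Meis1 passed lower, Hoxa9 had too few reads to be tested, and Procr passed higher, from 0.933 ± 0.236 to 2.27 ± 0.237 RPM (mean ± SD, n = 3). For the erythroid and megakaryocyte lists, 1 marker each was held: Slc4a1, at 11.2 to 16.4 RPM in WT and 5.82 to 7.67 in DM, and Itga2b, at 132 to 166 and 76.9 to 89.8 RPM. None of the held markers was at 0, and of the 8 B cell and 8 T cell markers listed 0 were held. The part of cell composition in the lower levels of Gata1, Gata2, Zfpm1 and Gfi1b was not tested.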

How the data were processed

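Raw read counts per head and body window were deposited by the authors for every transcript row, with a total per library. The authors' log2 fold changes, p-values and adjusted p-values of the body comparison, percentile ranks (a score from the lowest to the highest change) and mean normalized signal were deposited in the same table. The submitters' processing notes name cutadapt, Trimmomatic, Bowtie 1.1.2, MACS2, bedtools 2.28 and the builds mm10 and dm3; what each was used for, how reads were counted, the use of strand and the treatment of multiply mapped reads are not given in the sources used here. The deposited RPKM values, 12 columns, were not used; RPM and RPKM were computed from the counts.

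Each gene was represented by the row with the most body reads. Bodies, heads and their ratio (the interaction of window and group, with library as a block) were tested with edgeR 4.0.16 (limma 3.58.1, R 4.3.3), by the quasi-likelihood test after filterByExpr (minimum count 10, minimum total 15), with library sizes set to the deposited totals. P-values were adjusted by Benjamini-Hochberg over all genes tested, at a threshold of 0.05. The proximal Gata2 row and the stretch between the Gata2 heads were each tested in place of the distal row. TMM, DESeq2 1.42.0 and other choices were alternatives. The procedures were first tested on simulated data, where 97.5% of 2-fold body changes, 89.0% of head changes and 64.5% of ratio changes were recovered. The simulation gave every gene the same spread and held no library that stood apart, so these shares need not hold here. The batch entry is 1 for all libraries, and what it stands for is not given.

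Named were all rows of the 4 genes, the 3 genes most like each, and from each list up to 4 genes by mean body count, not all of which are printed. The members, lists and rules were chosen with earlier results of these data known. Of 2744 symbols, 97.9% were in the RefSeq table, from which promoter sequences and start sites come.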

Additional observations from a re-analysis of the deposited data

How the results depend on the processing

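Bodies of all 5 transcript rows stayed lower in DM under every alternative and with each library left out; leave-one-out log2 changes ran from -0.88 to -0.34 for Zfpm1 and from -0.96 to -0.56 for Gfi1b, the 2 members whose body calls were lost without some libraries. The body median over all genes moved by -0.21 with TMM scaling and by -0.33 with DESeq2, and the share of body calls higher in DM was 57.7% by library totals, 49.7% by TMM and 42.6% by DESeq2. Head log2 changes without 1 library ran from -1.49 to -0.92 for Gata1, from -1.40 to -1.001 for the distal Gata2 row, from -1.24 to -0.93 for the proximal Gata2 row, from -0.72 to -0.046 for Zfpm1 and from -0.99 to -0.60 for Gfi1b. The Gfi1b head change passed the threshold at -0.71 with TMM, -0.70 with DESeq2, -0.78 with the replicate block and -0.80 over all transcript rows. Ratio changes, none of which passed the threshold in any setting, turned sign with separate TMM scaling of heads and bodies (Gata1 0.093, the distal Gata2 row 0.011, the proximal Gata2 row 0.15, Gfi1b 0.22), with DESeq2 (Gata1 0.060, the proximal Gata2 row 0.12, Gfi1b 0.18) and for the proximal Gata2 row without WT replicate 2 (0.11, in a leave-one-out range of -0.30 to 0.11). The cause was not tested. Over all genes, head calls numbered 524, and 984 with TMM, 893 with DESeq2 and 796 with the replicate block; they ran from 14 to 942 with 1 library left out, and head calls in the pathway lists from 0 to 30. Ratio calls numbered 2, and 51 with separate TMM scaling, 122 with DESeq2 and 44 with the block, and ran from 0 to 82 with 1 library left out; without DM replicate 1, 2 or 3 edgeR called 0, with 154, 257 and 180 genes at an unadjusted p under 0.05. Deviations of same-numbered libraries correlated at -0.079, -0.20 and 0.35 in bodies and 0.095, -0.013 and 0.045 in heads. These values do not settle whether same-numbered libraries were paired, and the labels do not say. With the block, 2635 body calls were made, against 2707 without it, while head and ratio calls were more numerous, as given above. The edgeR adjusted p of every member body was also lower with the block. Heads of Gata1, Zfpm1 and Gfi1b, with 52 to 190 reads a library, limit what these libraries can show.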
